A study of Mus musculus with 2 samples.

Results

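Wide distal regions are stretches of accessible chromatin of 1500 bp or more whose midpoints lie away from annotated start sites. They were selected on a measured value, the width of each deposited region: a region of replicate 1 was a member where it spanned at least 1500 bp, overlapped a region of replicate 2 that also spanned at least 1500 bp, and had its midpoint over 1 kb from any start site in GENCODE (mm10). This rule took 1002 of the 68903 regions of replicate 1. Of these, 29 lay on unplaced or unlocalized sequences and were not analysed further, which left 973 members on chromosomes 1 to 19, X and Y. They made up 1.93% of the 50479 distal regions of replicate 1 on these chromosomes, and 5.82% of the bases those regions cover. Since the rule tests the midpoint alone, 18 members (1.85%) still held an annotated start within their width. Among them were members near Dusp4, Apobec3, Arid2, Ccdc33, Gm10721, Cd247 and Irf2bpl. Narrower distal regions span under 1500 bp, too little to reach a start over 1 kb from the midpoint. Their share of 0% therefore follows from the rule.

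The study profiled open chromatin by ATAC-seq, in which a transposase cuts accessible DNA, in primary regulatory T cells of mouse strain C57BL/6NJ. It holds 1 group of 2 libraries and no other condition, and the labels name no treatment, mutation, age or sex. The labels give both libraries 1 donor identifier and so do not show that they came from separate animals, and spreads between replicates may be technical. The names of list entries contain "72hrs", "ASTARR" and "insert", terms that no source used here explains. With 1 group, and members chosen by width, all comparisons below are descriptions without a test. Regions in both lists overlapped the promoters of 7 of 7 regulatory T cell markers (Foxp3, Il2ra, Ctla4, Ikzf2, Ikzf4, Tnfrsf18 and Icos) and 6 of 6 T cell markers. The same held for 1 of 4 B cell markers (Pax5), 1 of 4 myeloid markers (Spi1), 0 of 3 hepatocyte markers and 1 of 3 neuronal markers (Rbfox3).

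Distal accessible regions are often enhancers, where transcription factors bind DNA, displace nucleosomes and act on the promoter of a gene at a distance. A typical enhancer opens little more than the space of a nucleosome, so a region of many nucleosome lengths can hold several factor sites, a promoter or another transcribed unit such as a tRNA gene. In regulatory T cells, factors of the AP-1, STAT5, RUNX, ETS, NFAT and FOX families are known to bind enhancers of genes that keep the cells' identity and restrain immune responses.

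The sequences below are examples of the DNA that members hold. They were read from the GRCm38 reference genome of RefSeq, which is the mm10 build and comes from C57BL/6J rather than C57BL/6NJ. The first 4 are the 151 bases centred on the replicate 1 summit, on the plus strand, of the member with the highest -log10 q near each of 4 immune regulators. The first 3 are shown because they hold a match and the last because it holds none. Capitals mark AP-1 matches (TGANTCA) and STAT matches (TTCNNNGAA). The Bach2 window is chr4:32291425-32291575, the Dusp4 window chr8:34755589-34755739, the Irf8 window chr8:120715395-120715545 and the Nfkb1 window chr3:135676396-135676546. The Bach2 window holds 1 STAT match, the Dusp4 window 1 AP-1 match, and the Irf8 window 1 of each. Windows chosen in the same way near Bcor and Irf2bpl also held no match, and that near Clec16a held 1 STAT match.
Bach2: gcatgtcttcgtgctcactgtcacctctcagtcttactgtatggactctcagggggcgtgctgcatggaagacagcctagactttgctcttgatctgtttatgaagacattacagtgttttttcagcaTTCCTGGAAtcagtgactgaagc
Dusp4: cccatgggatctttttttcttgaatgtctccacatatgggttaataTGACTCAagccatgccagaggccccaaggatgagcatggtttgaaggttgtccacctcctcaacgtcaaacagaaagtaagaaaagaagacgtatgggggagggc
Irf8: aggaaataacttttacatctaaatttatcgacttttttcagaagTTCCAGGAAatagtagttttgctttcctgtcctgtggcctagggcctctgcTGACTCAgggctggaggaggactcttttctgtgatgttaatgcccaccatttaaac
Nfkb1: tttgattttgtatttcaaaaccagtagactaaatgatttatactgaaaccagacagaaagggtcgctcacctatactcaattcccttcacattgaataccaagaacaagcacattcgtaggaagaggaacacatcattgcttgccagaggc

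CpG-rich members lay a median of 2.93 kb from a GENCODE start. The next window comes from an extreme, the CpG-rich member farthest from any GENCODE start among the 19 with a RefSeq start within 1 kb. It is chr9:67634016-67634166, plus strand, in the member nearest Tln2, the gene of the cytoskeletal adaptor talin 2, and capitals mark its 21 CG dinucleotides.
Tln2: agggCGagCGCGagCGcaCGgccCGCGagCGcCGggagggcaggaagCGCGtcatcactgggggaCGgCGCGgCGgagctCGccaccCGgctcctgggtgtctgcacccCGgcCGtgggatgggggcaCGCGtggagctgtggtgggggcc

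The last set gives the 5 tRNA genes that RefSeq annotates within 1 member, the most in any. The member spans 3111 bp on chromosome 19 and is nearest Olfr1423, an olfactory receptor gene. The genes are printed 5′ to 3′ on their own strand, and capitals mark the internal B box, the promoter element inside a tRNA gene, searched as GTTCNANNC. Their places are chr19:12009696-12009768 (minus strand), chr19:12011086-12011168 (minus), chr19:12011588-12011673 (minus), chr19:12011931-12012003 (plus) and chr19:12012266-12012338 (plus). Both valine tRNA genes have the same letters throughout.
tRNA-Lys: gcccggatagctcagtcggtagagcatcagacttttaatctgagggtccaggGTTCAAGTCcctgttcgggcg
tRNA-Leu: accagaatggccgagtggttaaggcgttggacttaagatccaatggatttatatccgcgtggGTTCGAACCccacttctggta
tRNA-Arg: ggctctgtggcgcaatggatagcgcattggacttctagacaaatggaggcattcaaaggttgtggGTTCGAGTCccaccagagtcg
tRNA-Val, first copy: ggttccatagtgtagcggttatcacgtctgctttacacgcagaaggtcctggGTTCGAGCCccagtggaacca
tRNA-Val, second copy: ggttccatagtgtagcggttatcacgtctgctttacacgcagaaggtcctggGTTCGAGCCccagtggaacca
On this strand, 371 of the 403 tRNA genes on these chromosomes (92.1%) hold a B box match. On both strands, 7.09% of member windows that reach 100 bp to each side of the summit hold one, against 6.996% of windows of narrower distal regions, so these letters alone were about equally common.

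The rule asks for 1500 bp in both libraries, so similar widths in both follow in part from it. Of the 1193 wide distal regions of replicate 1 on these chromosomes, 219 overlapped only narrower regions of replicate 2 and were not members. The median width of members was 1755 bp in replicate 1, with quartiles of 1616 and 1976 bp, and 229 members reached 2000 bp and 21 reached 3000 bp. The width in replicate 2 divided by that in replicate 1 had a median of 1.02 and ranged from 0.473 to 2.02, and 677 of 973 members were wider in replicate 2. Read from replicate 2, the same rule gave 971 members with a median width of 1812 bp. Across the 973 members, Spearman's rho between replicates was 0.804 for width, 0.947 for signal and 0.969 for -log10 q, all 3 of which come from the same reads and the last 2 of which are the authors' values for each region.

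**Figure D1:**
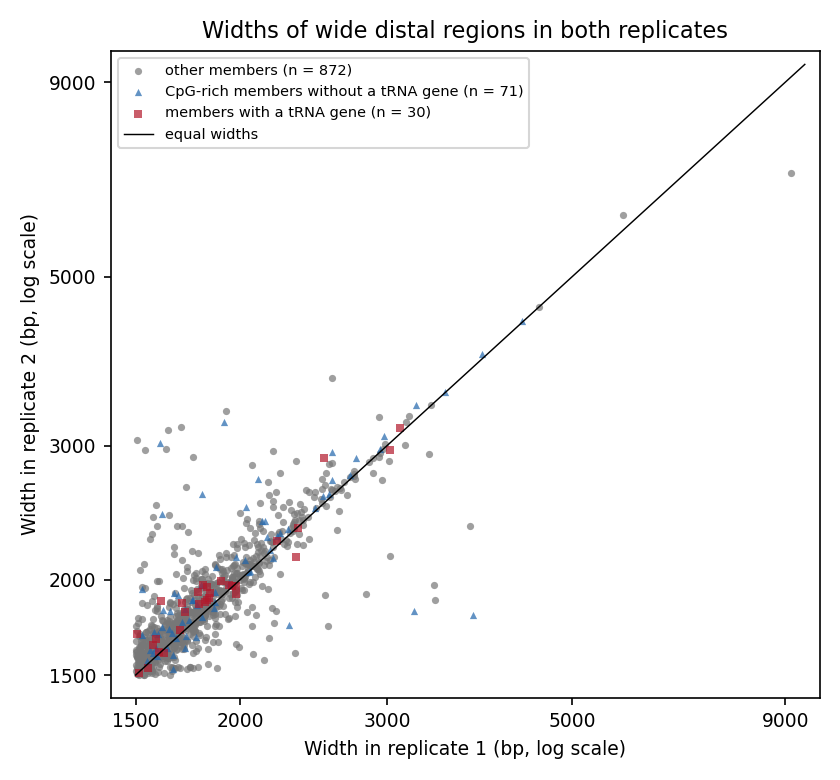
Width of each of the 973 wide distal regions in replicate 1 (x axis, bp, log scale) and of its partner in replicate 2 (y axis, bp, log scale). Squares are the 30 members with a tRNA gene, triangles the other 71 CpG-rich members and circles the remaining 872, and most points lie near the line of equal widths while a few are up to 2.02 times as wide in replicate 2.

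At the width minimum the members pass gradually into the rest. Just inside it lay the members nearest Cdhr3, a cadherin family gene, with 1500 bp in replicate 1 and 1547 bp in replicate 2, Stk24, a kinase gene, with 1500 and 1593 bp, and Trat1, which encodes a T cell receptor-associated adaptor, with 1500 and 1616 bp. Just outside it, 1 bp short in replicate 1, lay regions nearest the ribosomal protein gene Rps12, the transcription factor gene Egr3 and the ribosome assembly gene Nop53. Members under 1600 bp numbered 209, and 169 distal regions from 1400 bp up to the minimum overlapped a replicate 2 region of 1500 bp or more.

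Members stood higher by -log10 q than by signal. By signal, the median member stood at the 58.1 percentile of all regions in replicate 1 and the 62.2 percentile in replicate 2. By -log10 q it stood at 76.2 and 79.5. Narrower distal regions found in both libraries, 45143 in replicate 1 and 44447 in replicate 2, had medians of 46.8 and 52.9 by signal and 45.3 and 51.7 by -log10 q. In replicate 1, 618 members were above their list's median by signal and 852 by -log10 q. The member 8.37 kb downstream of the Ctla4 start, Ctla4 being an inhibitory receptor that regulatory T cells need, spanned 2508 bp in replicate 1 and 2525 bp in replicate 2 but had signals of only 2.39 and 2.69. The member nearest Scd3, a fatty acid desaturase gene, had the highest -log10 q in replicate 1, with 414 there and 563 in replicate 2, at widths of 1578 and 1596 bp. Ctla4 and Scd3 were chosen after their values were seen.
Summits were less central in the members. With each region cut into 3 equal pieces, the summit lay in the central piece in 33.8% of members, against 57.0% of narrower distal regions. The summits of both libraries lay a median of 20 bp apart in members and 22 bp in narrower regions, but over 200 bp apart in 147 members (15.1%) and in 6.65% of narrower regions. A narrow region leaves little room for summits over 200 bp apart, so the last difference follows in part from the width rule.

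By the mean of both widths, the 10 widest members were of several kinds. The widest lay near Gm10721 on chromosome 9, with 9154 bp in replicate 1 and 6844 bp in replicate 2. Repeats made up 97.3% of it, and the 31-base words around its summit occurred 25 times in the genome. The next, nearest the vomeronasal receptor gene Vmn1r2 but 84.2 kb upstream of its start, spanned 5747 and 6032 bp, and 49.9% of it was repeats. Apobec3, which encodes a cytidine deaminase that restricts retroviruses, held a member of 4562 bp in replicate 1 and 4556 bp in replicate 2. Bcor, the gene of a corepressor that binds BCL6, held one of 4349 and 4371 bp. Others lay near chromatin regulators. The member 1.56 kb upstream of Arid2, a subunit gene of a SWI/SNF remodeller, spanned 3895 bp in replicate 1 and 3963 bp in replicate 2. A member inside Kdm6b, the gene of a histone H3 lysine demethylase, spanned 3521 and 3524 bp. The widths in both libraries were 3384 and 3393 bp near Adamtsl4, a gene of an extracellular matrix protein, 3246 and 3396 bp near Gpc5, a glypican gene, 3186 and 3285 bp near Ucp2, a mitochondrial carrier gene, and 3166 and 3220 bp near Ccdc33. By replicate 1 alone, the member 1.13 kb from the Dusp4 start, with 3801 bp, and one in Stat5a, the gene of a STAT factor, with 3417 bp, would be among them, but in replicate 2 they spanned 1797 and 1971 bp. The Stat5a member was weak, with signals of 2.17 in replicate 1 and 2.83 in replicate 2, and its midpoint lay 0.32 kb beyond the end of Stat3. Stat5a was chosen after its values were seen. Of the 10, those near Bcor, Arid2, Kdm6b and Gpc5 were CpG-rich.
Repeats covered over 50% of 10 members (1.03%), against 3.68% of narrower distal regions. Copied summits, whose 31-base words had a median above 1 copy, occurred in 4 members, near Gm10721, Gm10718, Tcp10c and Olfr693. Reads from such copies cannot be placed with certainty.

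By nearest start of a protein-coding gene, the members were assigned to 848 genes, 3.88% of 21829, of which 748 had 1, 83 had 2 and 17 had 3 or more. Bach2 had the most, with 6, all in its introns. Bach2 encodes a repressor that keeps effector programs of T cells in check and supports regulatory T cells. Its members were 1587, 1712, 2143, 1813, 2944 and 2054 bp wide in replicate 1, and 1604, 1737, 2180, 1950, 2935 and 2340 bp in replicate 2. The one 52.8 kb downstream of a start, whose summit is printed above, was the strongest, with -log10 q of 328 and 533. The weakest, 45.2 kb downstream of another start, had 24.6 and 38.3. The 6 were among 44 distal regions near Bach2 that both libraries shared.
Dusp4, the gene of a phosphatase that inactivates MAP kinases, had 5, all intergenic. They lay 135, 118, 51.0 and 1.13 kb upstream and 15.05 kb downstream of its start. The one at 1.13 kb spanned 3801 bp in replicate 1, where replicate 2 had 2 regions, the wide one of 1797 bp. The strongest, 51.0 kb upstream, was 1949 and 1994 bp wide with -log10 q of 186 and 312.
Bcor had 4, of which 3 were CpG-rich. At 1.11 kb upstream and 1.89 kb downstream of a start, the members were 1591 and 1915 bp wide in replicate 1 but 2351 and 3219 bp in replicate 2. Irf2bpl, which encodes a nuclear protein of the IRF2-binding family, had 4 at 60.04, 24.8 and 1.01 kb downstream and 9.90 kb upstream of its start. The one at 1.01 kb, with its midpoint in an exon, also held that start. Nfkb1, the gene of the NF-kB subunit p50 and its precursor, had 4 of 1974, 1706, 1722 and 1885 bp in replicate 1 and 1981, 1735, 2649 and 1917 bp in replicate 2. Their signals lay between 2.94 and 8.58 in replicate 1 and between 2.82 and 9.03 in replicate 2.

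**Figure D2:**
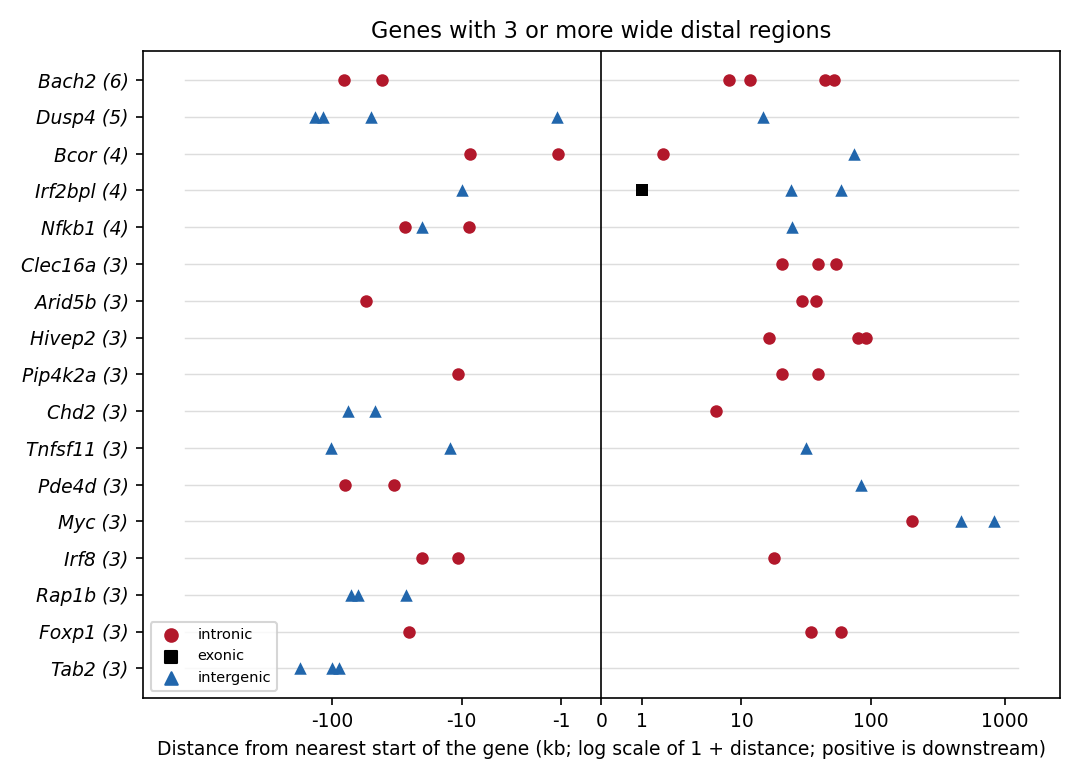
Place of each wide distal region of the 17 genes with 3 or more, as distance in kb from the nearest annotated start of that gene (x axis, log scale of 1 plus the distance; positive is downstream), with circles for intronic, squares for exonic and triangles for intergenic midpoints. Bach2 had 6 intronic members on both sides of its several starts, and those of Myc lay 203 to 837 kb downstream.

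Irf8, the gene of an interferon regulatory factor, had 3. Its 2 upstream members, 20.5 and 10.7 kb from the start, were narrow for the set but strong, with 1541 bp and -log10 q of 349 and 1520 bp and 171 in replicate 1, and 1659 bp with 505 and 1618 bp with 228 in replicate 2. The downstream one was wider, with 2207 and 2608 bp, and weaker, with 32.7 and 71.7. The 3 members nearest Myc, a driver of cell growth, lay 203, 470 and 837 kb downstream, the first within the noncoding RNA gene Pvt1, and were 1639 to 1952 bp wide in replicate 1 and 1662 to 1982 bp in replicate 2. Foxp1, a forkhead factor gene needed for T cell quiescence, had 3 intronic members of 1627, 1716 and 1553 bp in replicate 1 and 1601, 1950 and 1642 bp in replicate 2. The other genes with 3 were Clec16a, Arid5b, Hivep2, Pip4k2a, Chd2, Tnfsf11, Pde4d, Rap1b and Tab2. They include regulators of transcription and chromatin (Arid5b, Hivep2, Chd2), the cytokine gene Tnfsf11 (RANKL), the adaptor gene Tab2 of NF-kB signalling, a cAMP phosphodiesterase gene (Pde4d), a phosphoinositide kinase gene (Pip4k2a) and a small GTPase gene (Rap1b). All 3 of Clec16a, Hivep2 and Arid5b lay in introns of those genes, and all 3 of Rap1b and Tab2 were intergenic and upstream.
Apobec3 and Gpc5, with 2 each, were also among the first 20 genes by count and total width. Gpc5 was only the nearest coding start of its pair, since the nearest starts of any kind were those of Mir17hg and Mir92-1, of the miR-17-92 cluster, which drives lymphocyte growth when overexpressed. The member 1.79 kb from the Mir17hg start was 3246 and 3396 bp wide with -log10 q of 200 and 302. The other was 1943 and 1782 bp wide with 12.1 and 16.9.

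Of 21829 protein-coding genes, 848 (3.88%) were nearest to a wide distal region. Among regulatory T cell core genes the count was 8 of 28: Il2ra, Ctla4, Icos, Nrp1, Entpd1, Nt5e, Ikzf1 and Bach2. Foxp3, the factor that defines the lineage, had none. The member 5.91 kb upstream of Il2ra, the IL-2 receptor alpha chain gene, spanned 1541 bp in replicate 1 and 2958 bp in replicate 2, with signals of 3.78 and 5.99. Icos, the gene of a costimulatory receptor, had a member of 1880 and 1926 bp, 2.81 kb upstream. Values for Il2ra and Icos are given by choice after they were seen. Naive and quiescent T cell genes had 9 of 15, the largest share of the 16 lists: Lef1, Ccr7, Klf2, Foxo1, Foxp1, Satb1, S1pr1, Bach2 and Btg2. The count was 7 of 27 among pan T cell genes, 7 of 18 for IL-2 and STAT5 signalling, 8 of 27 for activation transcription factors, 4 of 12 for coinhibitory receptors, 4 of 17 for TGF-beta signalling, 6 of 15 for T helper 17, 3 of 13 for follicular helper, 2 of 14 for T helper 2 and 1 of 15 for T helper 1 genes. It was 1 of 12 for B cell, 1 of 14 for myeloid, 0 of 11 for hepatocyte and 0 of 12 for neuronal genes. Housekeeping genes had 6 of 16, so a high count was not confined to lists of T cell genes. The lists hold few genes, some genes stand in more than 1 list, and the number of wide distal regions per gene had a median of 0 in all lists but that of naive and quiescent T cells, where it was 1.
Genes also differ in how many distal regions they have. Of the distal regions found in both libraries, 2.10% were wide over all genes. The share reached 5.31% in naive and quiescent T cell genes (17 of 320), 4.93% for regulatory T cell core genes (14 of 284), 5.18% for activation transcription factors (20 of 386), 2.79% for pan T cell genes (9 of 323) and 14.0% for housekeeping genes (7 of 50). It was 4.90% for IL-2 and STAT5 signalling, 4.55% for coinhibitory receptors, 4.46% for T helper 17, 2.65% for follicular helper T and 2.58% for TGF-beta signalling genes. T helper 2 genes, with 1.69% (2 of 118), and T helper 1 genes, with 0.877% (1 of 114), lay below the share over all genes. B cell genes had 2.94% (1 of 34), myeloid genes 2.13% (1 of 47), and hepatocyte and neuronal genes 0%.

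**Figure D3:**
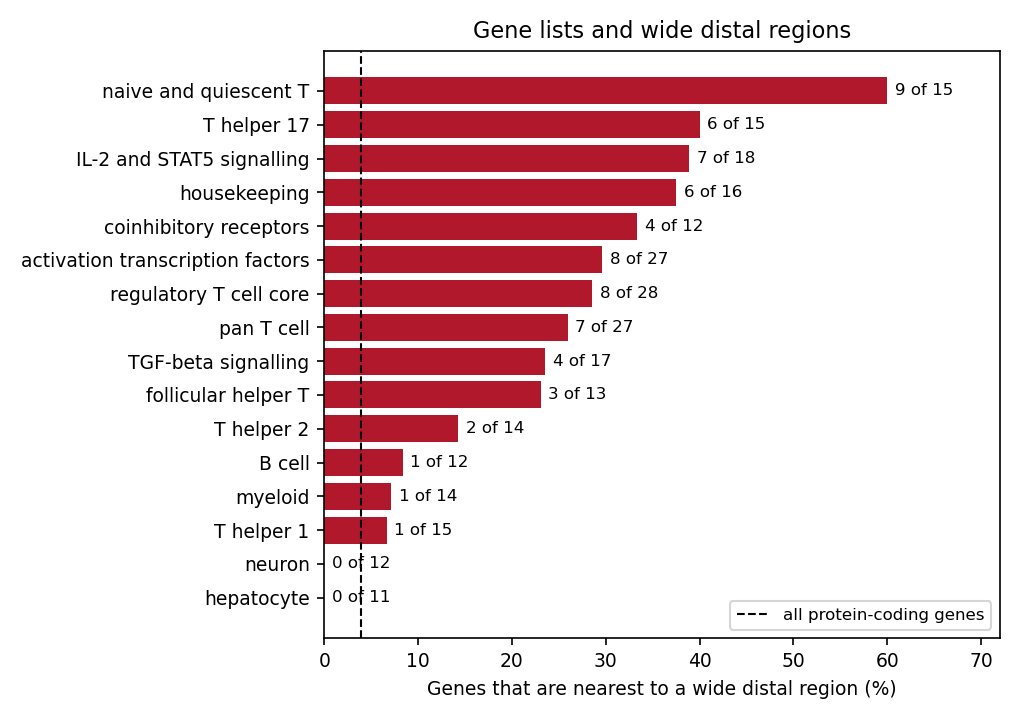
Percent of the genes in each of 16 lists that are nearest to at least 1 wide distal region (x axis), with the count of genes beside each bar. The dashed line is the 3.88% of all 21829 protein-coding genes, and the longest bar is that of naive and quiescent T cell genes, 9 of 15.

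Other T cell genes with 2 members were Bcl6, Cd247, Ikzf1, Il6st, Lef1, Runx3, Ski and Socs1. Those nearest Bcl6, a repressor that directs follicular T cells, lay 177 and 199 kb upstream and were 1676 and 1599 bp wide in replicate 1 and 1616 and 1614 bp in replicate 2. Cd247, the gene of the CD3 zeta signalling chain, had both midpoints in its introns, 1.03 and 13.8 kb downstream of its start. Their widths were 2411 and 2017 bp in replicate 1 and 2419 and 2032 bp in replicate 2. The first of them also held that Cd247 start. Ikzf1, an Ikaros family factor gene, had 1 upstream member of 1725 and 1797 bp and 1 intronic member of 2044 and 2052 bp. Runx3, a factor gene of T cell lineages, had members of 1831 and 2076 bp in replicate 1 and 2003 and 1598 bp in replicate 2. The pair nearest Il6st, the gene of the shared IL-6 receptor chain gp130, spanned 1581 and 1533 bp in replicate 1 and 1591 and 1547 bp in replicate 2. The pair nearest Lef1, a factor gene of naive T cells, lay 164 kb upstream and 44.1 kb downstream. Ski, a corepressor gene of TGF-beta signalling, had 2 intronic members. Of the pair nearest Socs1, an inhibitor gene of cytokine signalling, one lay within an intron of Clec16a.
Genes with a wide distal region had open promoters somewhat more often. A region in both libraries covered the promoter of 82.3% of these 848 genes, against 78.6% of the 11051 genes that had replicated distal regions but no wide one. The promoter region itself was at least 1500 bp wide in 30.9% of the 848 genes and in 20.6% of the 11051. The median number of replicated distal regions per gene was 6 and 2 in these sets, and genes with more distal regions have more chances to hold a wide one.

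Members lay less often in introns than narrower distal regions did. By midpoint, 464 members were intronic, 424 intergenic and 85 exonic. The intronic share was 47.6% ± 0.15 in members and 55.6% ± 0.044 in narrower distal regions (SD, n = 2 replicates each). The exonic shares were 8.74% ± 0.013 and 5.86% ± 0.026. First introns held 21.5% of members and 20.2% of narrower regions. The median distance to a start of any kind was 8.70 kb for members and 9.98 kb for narrower distal regions of replicate 1, and 112 members lay within 2 kb and 52 over 50 kb away. Members had more accessible neighbours, with a mean of 8.07 other regions within 50 kb, against 6.40 for narrower regions, and 7 members had none.
A small share of members lay at the far ends of genes, though a larger one than of narrower distal regions. The midpoint lay within 1 kb of the annotated end of a protein-coding gene in 56 members (5.76%) and in 1439 narrower distal regions (3.19%) of replicate 1. In replicate 2 it was 56 members (5.77%) and 1390 narrower regions (3.13%). Between 1 and 2 kb beyond the end lay 42 members (4.32%), against 1.799% of narrower regions. Among members of 2000 bp or more, 9.17% in replicate 1 and 8.27% in replicate 2 lay within 1 kb of an end. These members had lower signal: the median one stood at percentile 37.9 in replicate 1, against 58.4 for the other members, and at 40.2 in replicate 2, against 62.9. By -log10 q it stood at 59.4 in replicate 1, against 76.7, and at 69.8 in replicate 2, against 79.8. Single ones ranged from signal percentile 0.770 to 87.8 in replicate 1. They include regions 0.98 kb beyond the end of Actb (beta-actin), 0.77 kb beyond Gapdh (a glycolytic enzyme), 0.90 kb beyond Ccr7 (a homing receptor), 0.42 kb beyond Ucp2 and 0.25 kb beyond Irf8, which were chosen after their values were seen and all stood below percentile 50 by signal in replicate 1. Where genes lie close, the end of one and the start of the next can lie in the same region.

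A CpG-rich class, with GC content above 50% and a ratio of observed to expected CpG above 0.6, was larger among members. It held 79 members (8.12%) in replicate 1 and 75 (7.72%) in replicate 2, against 1.801% and 1.62% of narrower distal regions. Among members of 2000 bp or more the share was 12.7% in replicate 1 and 10.4% in replicate 2. Of wide regions at start sites, 76.6% and 75.9% were CpG-rich. CpG-rich DNA is typical of promoters, and RefSeq, whose starts the rule did not use, places a start within 1 kb of the midpoint of 79 members (8.12%), against 3.36% of narrower distal regions in replicate 1. Of the 79 CpG-rich members, 19 (24.1%) had one, and of the other 894 members, 60 (6.71%). The member nearest Tln2 lay 66.6 kb from any GENCODE start but 372 bp from a RefSeq start. It was 1798 and 1968 bp wide, and 63.3% of its bases were G or C, and it was chosen after its values were seen. The Kdm6b member lay 3.32 kb from a GENCODE start and 539 bp from a RefSeq start. Over all members the median GC content was 48.4% ± 0.032, against 46.5% ± 0.083 in narrower distal regions (SD, n = 2 replicates each).

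tRNA genes, which RNA polymerase III transcribes and whose starts were not among those of the rule, were concentrated in the members. In replicate 1, 30 members (3.08%) held 69 of the 403 RefSeq tRNA genes on these chromosomes, which is 17.1% of them. Of narrower distal regions, 78 (0.173%) held 97. Per Mb of region, members held 37.9 tRNA genes and narrower distal regions 3.496, a rate that takes their greater width into account. Wide regions at start sites held 3.75 per Mb. Replicate 2 gave 30 of 971 members (3.09%), against 77 narrower regions (0.173%). By width the share with a tRNA gene was 0.0589% under 500 bp, 0.130% from 500 to under 1000 bp, 0.790% from 1000 to under 1500 bp, 3.23% from 1500 to under 2000 bp and 2.62% at 2000 bp or more. Of the 30 members, 23 held at least 2 tRNA genes, 28 were intergenic and 8 were CpG-rich, and none had a copied summit. Their median width was 1820.5 bp in replicate 1 and 1907 bp in replicate 2, and their median -log10 q stood at the 85.5 and 88.1 percentiles.
These members lay on 10 chromosomes, with 7 on chromosome 11 and 7 on chromosome 13. The Olfr1423 member, whose tRNA genes are printed above, was 3111 and 3166 bp wide with signals of 4.68 and 5.51. On chromosome 11, members nearest Aurkb, Borcs6 and Aloxe3 held 4, 4 and 3 tRNA genes, with widths of 1976, 1586 and 1976 bp in replicate 1 and 1965, 1673 and 1919 bp in replicate 2. A member nearest Cfap126 on chromosome 1 held 4 and was 1834 and 1895 bp wide. A member 19.2 kb upstream of Wnt11 held 2 proline tRNA genes and was 1896 and 1994 bp wide. These members are called by the nearest protein-coding start only, and were chosen after their values were seen. The pair nearest Trim27 on chromosome 13 spanned 1515 and 3024 bp in replicate 1, 3.57 kb apart, and held 2 tRNA genes each.

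**Figure D4:**
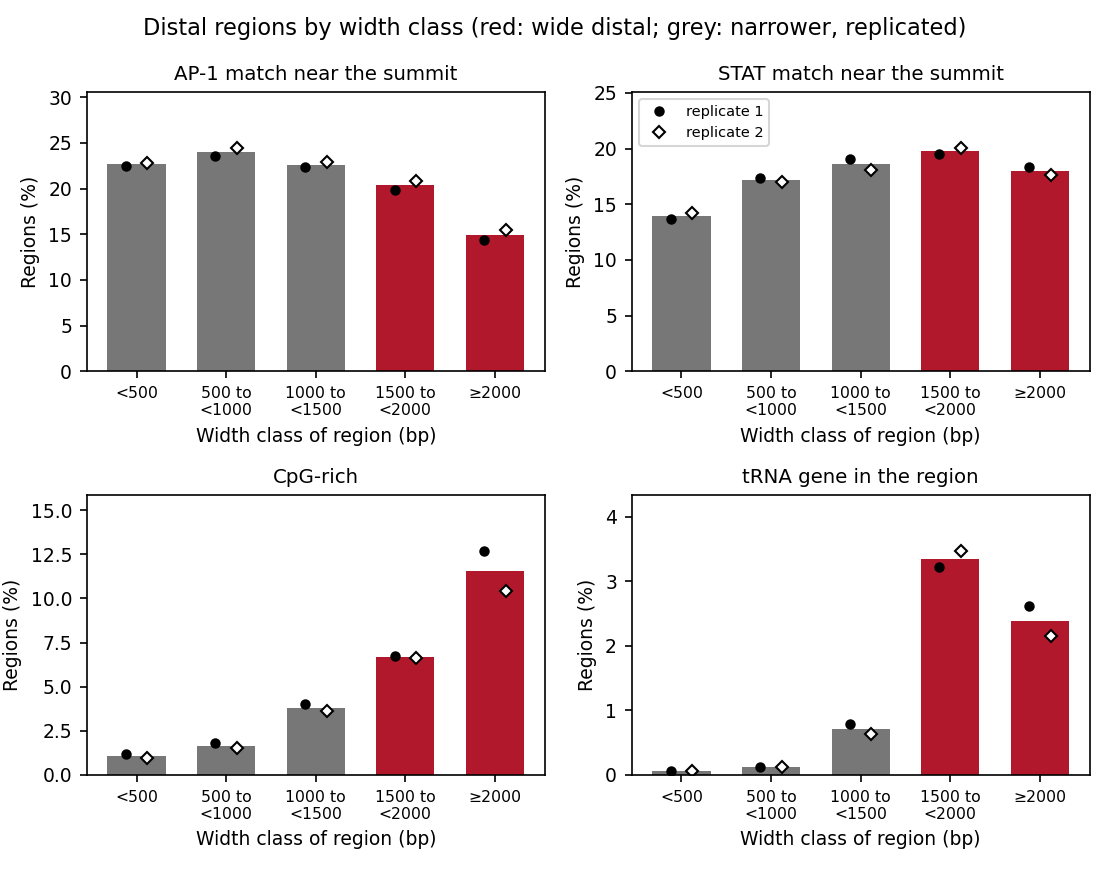
Share of replicated distal regions (y axes, percent) that hold an AP-1 match or a STAT match within 100 bp of the summit, are CpG-rich, or hold a tRNA gene, by width class (x axes, bp). Bars are means of both replicates, filled circles replicate 1 and open diamonds replicate 2; among wide distal regions in replicate 1 the tRNA share was 3.23% from 1500 to under 2000 bp and 2.62% at 2000 bp or more.

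Consensus letters of 28 factor motifs were searched, forward and reverse, over 100 bp to each side of the summit, so that every window had the same length whatever the width. AP-1 matches (TGANTCA), the site of Jun, Fos and BATF dimers, were fewer in members: 18.9% ± 0.46 held one, against 23.3% ± 0.48 of narrower distal regions (SD, n = 2 replicates each). The ratio was 0.81 in both replicates, and all distal regions had 22.3% and 23.4%. Members of 2000 bp or more had 14.4% in replicate 1 and 15.5% in replicate 2. AP-1 matches were fewer away from the summit, so their density over a whole region depends on width, the value of the rule. In replicate 1 it fell from 0.936 per kb under 500 bp and 0.591 from 1000 to under 1500 bp to 0.391 at 2000 bp or more. Over whole members the AP-1 density was 0.47 per kb in replicate 1, against 0.74 in narrower regions. Per region the order was the other way, with more bases in each member: 55.7% of members and 35.3% of narrower regions held at least 1 match, with means of 0.88 and 0.46. Of the members, 431 held no match, 331 held 1, 132 held 2 and 79 held 3 or more. GC content of the window moved with the share at the summit, and members had the lower share in 5 of 6 GC classes in replicate 1. In windows under 40% GC, 24.3% of members and 28.3% of narrower regions held AP-1. The shares were 26.3% and 27.6% from 40 to 45% GC, 21.6% and 24.5% from 45 to 50%, and 18.9% and 19.8% from 50 to 55%. From 55 to 60% GC they were 14.7% of members and 14.6% of narrower regions, and at 60% or more 3.82% and 9.03%. Of CpG-rich members 2 of 79 held AP-1, and of those with a tRNA gene 1 of 30.
STAT matches (TTCNNNGAA) were more frequent at the summits of members, at 19.3% ± 0.10 against 16.1% ± 0.11 in narrower distal regions, and in both sets they peaked at the summit. By width class in replicate 1 the STAT share was 13.7% under 500 bp, 17.4% from 500 to under 1000 bp and 19.1% from 1000 to under 1500 bp. It was 19.5% from 1500 to under 2000 bp and 18.3% at 2000 bp or more. Regions just under the width minimum thus had nearly the same share as members. The narrower STAT5 form (TTCCNGGAA), bound by the factor that acts downstream of IL-2, had 3.55% ± 0.21 in members and 2.80% ± 0.0023 in narrower distal regions. BCL6 letters (TTCNNGGAA), which overlap those of STAT, had 11.3% ± 0.13 and 8.61% ± 0.017. The E-box CAGCTG, bound by E proteins of lymphocytes, had 15.5% ± 0.023 in members and 13.2% ± 0.10 in narrower regions. The E-box CAGGTG went the other way, with 14.6% ± 0.27 in members and 15.4% ± 0.050 in narrower regions (SD, n = 2 replicates each for all). Over whole regions in replicate 1 the density was lower in members, with 0.493 STAT, 0.0697 STAT5 and 0.257 BCL6 matches per kb, against 0.595, 0.0819 and 0.294 in narrower regions. As for AP-1, a wider region adds bases away from the summit, where STAT matches were fewer, so this density also depends on width.
SP, CRE and EGR letters were rare but more frequent in members. SP letters (GGGGCGGGG) had 2.73% ± 0.22 in members and 1.13% ± 0.032 in narrower distal regions. CRE letters (TGACGTCA) had 0.93% ± 0.0013, from 9 members in replicate 1, and 0.43% ± 0.0032. EGR letters (GCGTGGGCG), from 5 and 6 members, had 0.57% ± 0.074 and 0.12% ± 0.016. Counts this low carry a counting error that the SD leaves out. Of other letters common in promoters, the promoter form of the ETS site (CCGGAAGT) had 0.36% ± 0.073 in members and 0.51% ± 0.015 in narrower regions. YY1 letters (AAGATGGC) had 0.72% ± 0.0010 and 1.14% ± 0.0064. The member shares rest on 3 and 7 members in replicate 1, too few to read as a lower share. Wide regions at start sites had 4.17% and 3.05% for the same letters in replicate 1. RUNX, NFAT and FOX letters differed little. RUNX letters (TGTGGTT) had 10.6% ± 0.057 in members and 10.6% ± 0.050 in narrower regions. NFAT letters (TGGAAAA) had 5.09% ± 0.080 and 5.04% ± 0.0049, and FOX letters (TGTTTAC) 2.37% ± 0.15 and 2.38% ± 0.021. ETS and CTCF letters were less frequent in members. ETS letters (CAGGAAGT) had 5.45% ± 0.0079 in members and 6.15% ± 0.0076 in narrower regions, and the CTCF core (AGGGGGC) 4.73% ± 0.15 and 5.77% ± 0.034. A match is a match of letters only and does not show that a factor was bound.

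**Figure D5:**
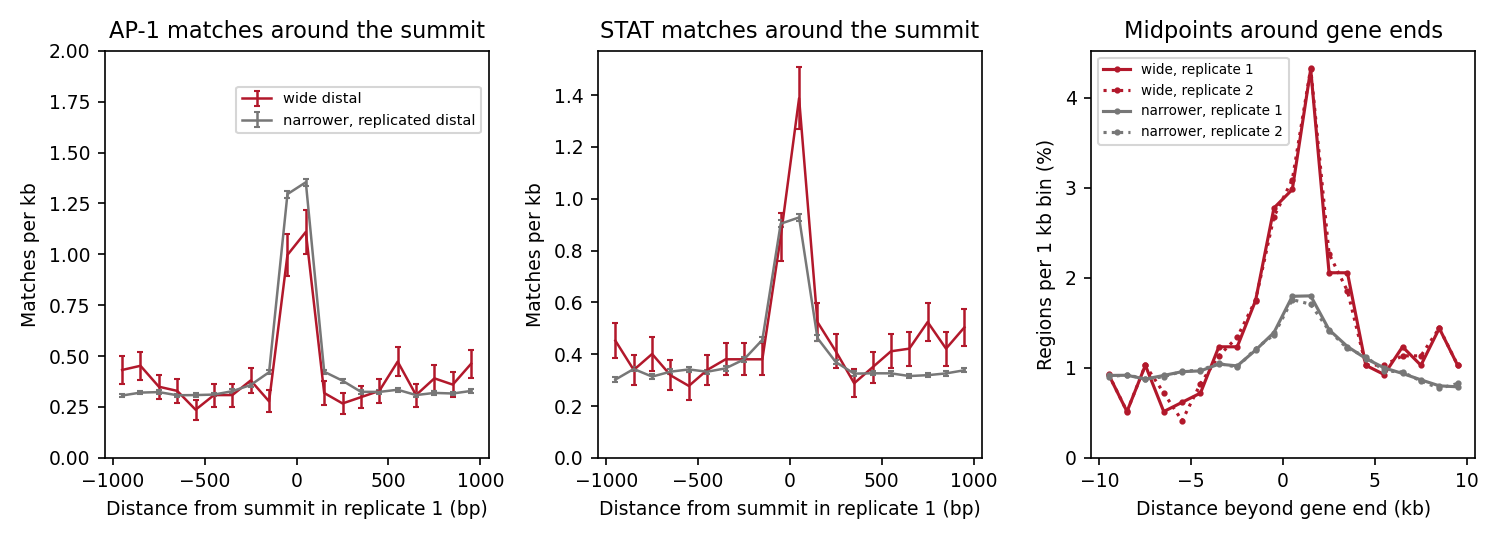
AP-1 and STAT matches per kb in 100 bp bins around the replicate 1 summit (first and second panel; bars are the square root of the count, counting error only), and percent of midpoints per 1 kb bin around the nearest end of a protein-coding gene (the last panel), for wide distal regions (red) and narrower replicated distal regions (grey). From 0 to 100 bp past the summit AP-1 had 1.11 matches per kb in wide and 1.35 in narrower regions and STAT 1.39 and 0.93; from 1 to 2 kb past a gene end lay 4.32% of wide and 1.799% of narrower regions of replicate 1.

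Few wide distal regions lay side by side, and the same share was not worked out for an equal number of narrower distal regions. Members 12.5 kb or less apart formed 29 pairs and no larger group, which took in 58 members (5.96%), and the median gap between consecutive members was 872 kb. By summed width the first 5 pairs were those near Gm10721 and Gm10718, Gpc5, Clec16a, Arid5b and Trim27, with spans of 16.1, 10.2, 17.3, 11.1 and 8.11 kb. The first lies in repeats and the last holds tRNA genes. The closest pair, near Ly6e, a cell surface protein gene of lymphocytes, had a gap of 817 bp, which was noticed after its values were seen. By chromosome, members made up 2.91% of distal regions on chromosome 15 and 1.39% on chromosome 18, the extremes among the autosomes, and chromosomes X and Y held 15 and 2 members.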

How the data were processed

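Open chromatin was measured by ATAC-seq in 2 libraries of mouse regulatory T cells. Regions in narrowPeak form on mm10 came from the alignments of each library alone, per the deposited text files. No source used here states the aligner, the peak caller or the depth, so intervals that rest on depth are left out. The authors' signal has no stated scale. The authors gave each region a -log10 p and a -log10 q, and the lowest -log10 q was 1 in both deposited lists. The deposited score repeats the -log10 q and was not used. These values only rank regions within a list, as percentiles.

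Overlap meant at least 1 bp. Widths, midpoints, places and distances used GENCODE release M21 (mm10), and RefSeq gave further starts and tRNA genes. Scripts ran in Python 3.11.15 with numpy 2.4.6 and pandas 2.3.3, and figures in matplotlib 3.10.9. Procedures were tested on simulated data. Copies were counted as genome-wide occurrences of 31-base words, taken every 10 bp.

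Narrower distal regions are those under 1500 bp with a partner in the other library. Shares are given as the mean of both replicates with their SD, which measures the spread between these libraries only. The rule pairs members across libraries, so both readings hold largely the same stretches of DNA. Their SD is therefore small in part by the rule, and it leaves out counting error. Promoters reached 1 kb to either side of any start.

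The members, 16 gene lists and 28 motifs were chosen with earlier results of these data known. Named genes were the 20 with the most members, T cell list genes with at least 2, those nearest the 10 widest members, the 5 pairs of greatest summed width, and 3 members on each side of the width minimum. A gene that this rule takes is not reported here. Gene ends, tRNA genes and the B box were examined after the data were seen. Alternatives changed the width, distance, overlap, q, replicate, start set and motif window.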

Additional observations from a re-analysis of the deposited data

How the results depend on the processing

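No paired analysis was possible because the series holds 1 group and no result comes from a test. The alternatives were set against the replicate 1 values, which were 47.7% intronic, 18.6% with AP-1 and a median GC of 48.4%. These are not the means of both replicates given above. Of 83 alternatives, 40 differed from the replicate 1 value by less than the replicate SD or, for a count, by less than 1.5 times. The cause of the others was not tested beyond the sets they left out. At a minimum width of 1000 bp there were 5201 members near 3427 genes, with 52.5% intronic, 21.3% with AP-1, a median GC of 47.4% and 952 in stretches. At 2000 bp there were 202 near 191 genes, with 44.1%, 15.3%, 49.0% and 10. Over 5 kb from any start, 47.2% were intronic, 19.8% held AP-1, the median GC was 47.7% and 26 lay in stretches. With protein-coding starts only, the intronic share, AP-1 share and median GC were 47.3%, 17.4% and 49.0%, and with the rule read from replicate 2 they were 47.5%, 19.3% and 48.4%. For these measures the replicate 2 reading had to differ by more than the SD, since that SD comes from the same 2 readings. Without CpG-rich members the intronic share, AP-1 share and median GC were 49.9%, 20.02% and 48.0%. Without tRNA members the intronic and AP-1 shares were 49.1% and 19.1%, and without members near a RefSeq start the AP-1 share was 19.7% and the median GC 48.1%; these 3 exclusions were chosen after seeing the data. AP-1 within 250 bp of the summit had 25.2% (narrower distal regions 31.6%), and over whole regions 0.47 per kb. The latter is a density, so its comparison with a share was bound to exceed the SD. Counting the gene whose body holds the region gave 443 genes. Joining at 5 and 25 kb put 14 and 120 members in stretches. With 1 library left out, and so no partner required, the counts were 1193 to 1628 regions, 1019 to 1355 genes and 77 to 156 in stretches, the intronic share 47.9% to 48.3%, the AP-1 share 19.1% to 19.96% and the median GC 48.0% to 48.2%. The unknown depth of the lists limits all of these: how width would move with depth was not tested.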
